A study of Mus musculus with 20 samples.

Results

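A set of 9 genes of the glucocorticoid receptor machinery were followed across mouse T-cell acute lymphoblastic leukemias (T-ALLs): the receptor *Nr3c1*, its chaperones and immunophilins *Fkbp4*, *Fkbp5*, *Ptges3* and *Hsp90ab1*, the coactivators *Ncoa1* and *Ncoa2*, and the corepressors *Ncor1* and *Nrip1*. Members were found by matching the Ensembl identifiers of the expression table to these symbols. This rule uses no measured value, but the set of genes was put together with earlier results of these data known. All 9 were among the 39017 genes of the table, and all 9 were among the 11339 genes tested, which had a mean of at least 1 FPKM (counts scaled by exon length in kilobases and by library size). Without ligand the receptor is held in the cytoplasm by HSP90, the p23 protein encoded by *Ptges3* and an FK506-binding immunophilin. FKBP4 supports transport of the receptor to the nucleus, whereas FKBP5 lowers its affinity for hormone and is itself a well-known target gene of the receptor. In the nucleus the receptor recruits coactivators of the p160 family and corepressor complexes, and it is the target of the glucocorticoids used to treat lymphoid leukemia.

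Each leukemia was transplanted, and RNA was extracted from the marrow of its recipients. The leukemias had been induced by insertional mutagenesis (IM) in C57Bl/6 x 129Sv/Jae F1 pups with the retrovirus MOL4070LTR and were passaged in irradiated wild-type adults, so the marrow also holds cells of the recipient. The 9 leukemias are JW81, 8633, 78A, 5C, 2M, JW14, 73M, 20M and 73A. Each leukemia has 2 libraries, one in a column whose name carries the letters VEH and one whose name carries DEX. Neither the labels nor the text of the study explains these letters, and they are used here only as names. Leukemia 4638 also has 2 libraries. Unlike the other 9, it is not shown under that number in the study's panel of mutations, and it was kept out of the main comparison and is given by its values. With 4638 added, *Nr3c1*, *Fkbp5*, *Ncoa1*, *Ncoa2* and *Nrip1* passed the test described below as they did without it (edgeR adjusted p from 0.00056 to 0.044).

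The 18 libraries of the 9 leukemias held between 8226528 and 201222288 expected counts (median 24451898). Every member had at least 288 counts in every library. Summed T lineage markers ranged from 525 to 1315 FPKM in VEH libraries and from 548 to 1183 FPKM in DEX libraries, and the sum was lower in DEX in 7 of 9 leukemias (ratios from 0.881 to 1.04). All 12 of them averaged at least 1 FPKM and were tested, and 1, *Cd5*, was called lower (log2 fold change -0.62, edgeR adjusted p = 0.011). Over all tested genes 6.79% were called lower. The 8 neutrophil markers summed to 45.5 to 4464 FPKM in VEH and 21.6 to 2633 FPKM in DEX libraries, and the sum was lower in DEX in 7 of 9 leukemias. The 11 myeloid markers summed to 13.6 to 568 and 10.1 to 328 FPKM and were also lower in 7 of 9. Only 6 of the 11 were tested, and 1, *Itgam*, was called lower (log2 fold change -0.47, edgeR adjusted p = 0.037). The 9 erythroid markers summed to 1.9 to 769 and 3.75 to 102 FPKM and were lower in 3 of 9, and the 9 B lineage markers summed to 0.545 to 29.8 and 0.579 to 5.57 FPKM and were lower in 5 of 9. Of the neutrophil, erythroid and B lineage markers, 8, 7 and 1 were tested, and 0 were called. No marker was at 0 in all libraries, and the part of these cells in the changes below was not tested. Short ribosomal RNA genes took 21.6 to 64.0 CPM in 5 libraries (DEX of JW14, JW81, 20M and 73M, and VEH of 5C), against at most 0.00497 CPM in the other 13. Since 4 of these 5 are DEX libraries, each change below was also fitted in the 4 leukemias without such a library and in the 5 with 1. In bulk RNA, fewer cells of a type cannot be told apart from less RNA per cell.

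Between DEX and VEH libraries, 5 of the 9 members were higher and 0 were lower (edgeR quasi-likelihood test with leukemia as a block, Benjamini-Hochberg adjusted p under 0.05). Over all tested genes 13.0% were called in either direction, 6.22% higher and 6.79% lower. The 5 were *Nr3c1*, *Fkbp5*, *Ncoa1*, *Ncoa2* and *Nrip1*. The median log2 fold change of the 9 members was 0.27, beside 0.0039 for all tested genes. The same test of the leukemia term called all 9 members different between leukemias, where 82.5% of tested genes were called. In the comparison of DEX and VEH libraries, p-values are set against the residual spread of the paired change over these leukemias. Those of the leukemia term are set against the same residual spread. With 1 library of each kind per leukemia, a difference in change from one leukemia to another was not tested. When the leukemia was left out of the model, 0 of the 5 passed (edgeR adjusted p = 0.11 for *Nrip1*, 0.62 for *Nr3c1*, 0.78 for *Ncoa2*, 0.81 for *Fkbp5* and 1.00 for *Ncoa1*).

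**Figure D1:**
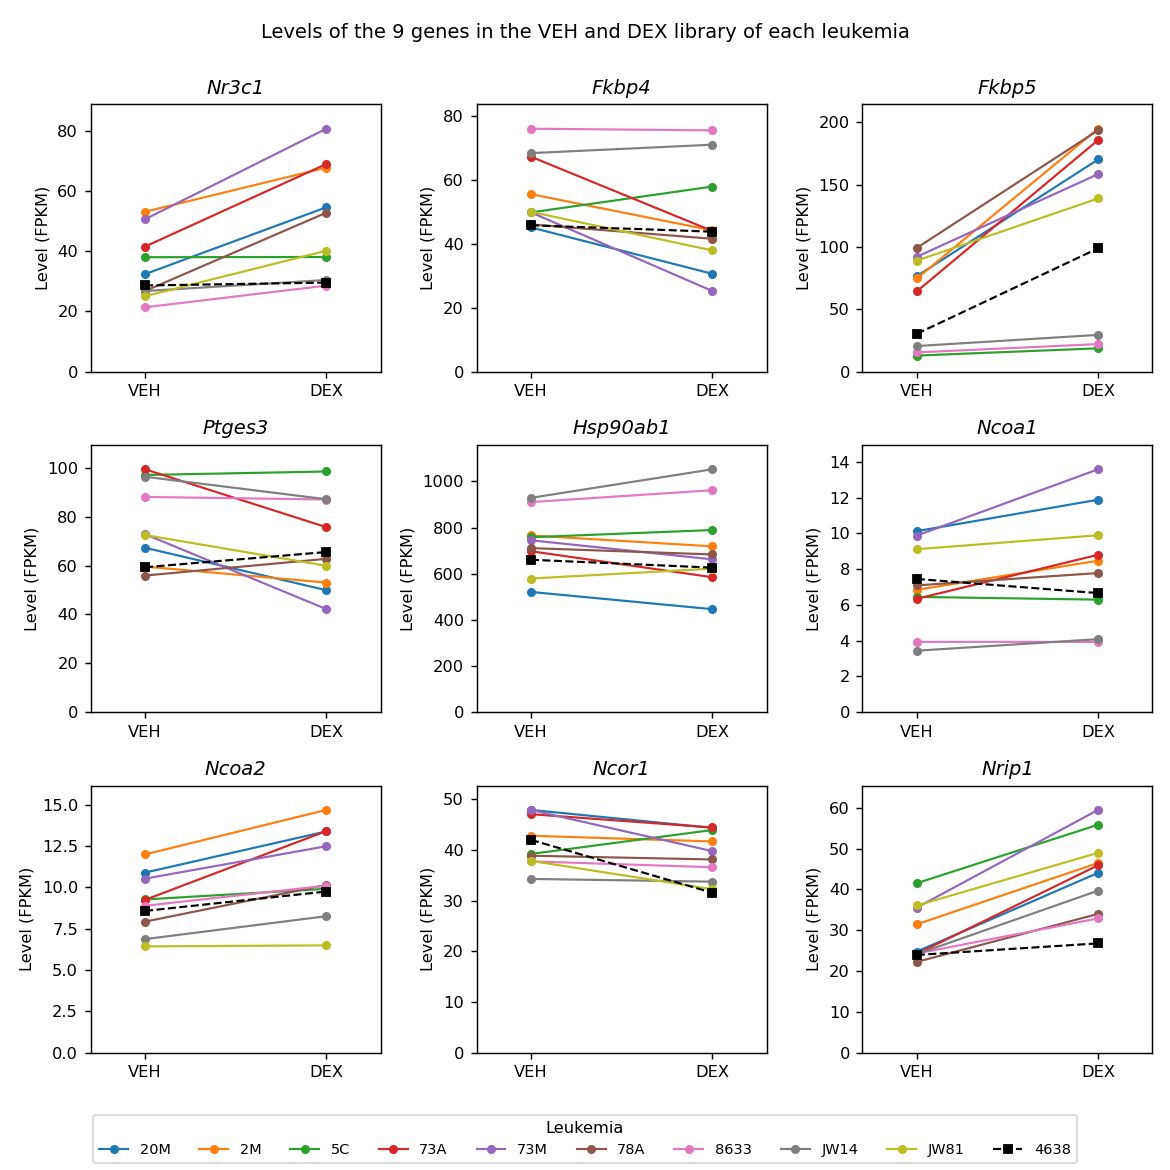
Level of each of the 9 genes in FPKM (vertical axis, linear, from 0) in the VEH and DEX library of each leukemia, 1 line per leukemia, with leukemia 4638 as dashed squares. *Fkbp5* and *Nrip1* rise in every pair, and the *Fkbp5* lines of 5C, 8633 and JW14 run far below those of the other 6.

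The receptor gene *Nr3c1* (ENSMUSG00000024431, minus strand of chromosome 18) rose in DEX libraries 1.5-fold. In VEH libraries it was at 21.4 FPKM in 8633, 25.1 in JW81, 26.8 in JW14, 26.8 in 78A, 32.4 in 20M, 38.1 in 5C, 41.6 in 73A, 50.7 in 73M and 53.2 in 2M. In the DEX libraries of the same leukemias it was at 28.6, 40.2, 30.5, 52.9, 54.7, 38.1, 69.1, 80.9 and 67.9 FPKM. The DEX value was the higher in 9 of 9 pairs, although by only 0.163% in 5C, and the 2 sets overlapped, with 4 DEX values above the highest VEH value. The log2 fold change was 0.58 (SE 0.099, 95% interval 0.37 to 0.80, edgeR adjusted p = 0.0056). Within the 4 leukemias without short ribosomal RNA it was 0.66 (edgeR adjusted p = 0.030), and within the 5 with it the test was not passed (adjusted p = 0.13). In 4638 the receptor gene was at 28.7 FPKM in VEH and 29.6 FPKM in DEX.

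Averaged over both libraries, *Nr3c1* was lowest in 8633 (25 FPKM) and highest in 73M (65.8 FPKM), a 2.63-fold span (edgeR F = 9.46, adjusted p = 0.00078). From lowest to highest log2 level the order was 8633, JW14, JW81, 78A, 5C, 20M, 73A, 2M and 73M. The gap between neighbours was larger than the residual SD of 0.22 in 2 places, JW81 to 78A (0.24) and 20M to 73A (0.34). Other neighbours did not differ beyond that spread. This SD is only as large as the standard error of a difference between leukemia means. Such gaps, here and below, describe the order and do not test for separate groups. The 5 tested genes whose level over the 9 leukemias was most like that of *Nr3c1* were *Aak1* (Pearson r = 0.97), *Lrrc57* (0.96), *Ddah2* (0.95), *Gprasp1* (0.94) and *As3mt* (0.94). These are the highest of 11339 genes over 9 points that share library depth and cell mixture, and they are given as a description.

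*Fkbp5* encodes FKBP51, the immunophilin that dampens the receptor, and showed the largest change among the members. Its promoter and those of *Fkbp4* and *Nrip1* are shown because these genes stand for the rising immunophilin, its counterpart and the member with the smallest p. Each is the stretch of 250 bases before the RefSeq start, from 5′ to 3′ on the gene's strand (all 3 minus) in GRCm38.p6, with capitals marking a CCAAT box (CCAAT or its reverse complement) or a heat shock element core (GAANNTTC). The *Fkbp5* window (chr17:28486150-28486399) ends at the RefSeq start and lies in an intron of longer transcripts in GENCODE M21. The *Fkbp4* window (chr6:128438657-128438906) overlaps the antisense gene *Gm10069*, and its last bases fall in the first exon of *Fkbp4*. The *Nrip1* window (chr16:76373828-76374077) ends at the start of the gene and is the farther upstream of its 2 windows.
Fkbp5: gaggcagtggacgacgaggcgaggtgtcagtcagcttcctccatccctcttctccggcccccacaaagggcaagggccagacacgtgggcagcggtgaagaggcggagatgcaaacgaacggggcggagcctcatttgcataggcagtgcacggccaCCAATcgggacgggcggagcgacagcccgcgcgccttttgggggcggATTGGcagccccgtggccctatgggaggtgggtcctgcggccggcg
Fkbp4: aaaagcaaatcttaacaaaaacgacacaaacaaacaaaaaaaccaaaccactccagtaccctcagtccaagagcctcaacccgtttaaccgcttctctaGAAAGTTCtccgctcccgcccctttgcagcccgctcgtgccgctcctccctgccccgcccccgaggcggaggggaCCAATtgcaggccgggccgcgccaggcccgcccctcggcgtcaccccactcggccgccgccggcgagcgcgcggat
Nrip1: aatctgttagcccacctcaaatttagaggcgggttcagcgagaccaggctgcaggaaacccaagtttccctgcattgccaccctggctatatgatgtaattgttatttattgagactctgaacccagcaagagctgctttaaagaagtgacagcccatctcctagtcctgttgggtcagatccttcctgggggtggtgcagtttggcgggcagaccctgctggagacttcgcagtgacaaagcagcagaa

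Promoter windows were given for 6 members (*Fkbp4*, *Fkbp5*, *Ncoa1*, *Ncor1*, *Nrip1* and *Ptges3*), 8 windows in all. The palindromic glucocorticoid response element, AGAACA and TGTTCT with 3 bases between them, was in 0 of these 8 and in 3 (0.00913%) of all 32851 windows of this length, searched on both strands. Its single arm TGTTCT, which the palindrome contains, was in 16.1% of all windows and among members in 1 window of *Ncor1*. The heat shock element core was in 6.69% of all windows and among members in that of *Fkbp4*. The CCAAT box was in 33.8% of all windows and among members in those of *Fkbp4* and *Fkbp5*. A missing match says only that these letters are not in these windows.

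*Fkbp5* (ENSMUSG00000024222, chr17:28399094-28517527) rose 1.92-fold (95% interval 1.62 to 2.28). In 5C it went from 12.8 FPKM in VEH to 18.6 in DEX, in 8633 from 15.4 to 22.0 and in JW14 from 20.4 to 29.4. In 73A it went from 64.4 to 186 FPKM, in 2M from 74.8 to 195, in 20M from 76.6 to 170, in JW81 from 89.1 to 139, in 73M from 92.2 to 159 and in 78A from 99.3 to 194. The DEX value was the higher in 9 of 9 pairs, and in 6 leukemias it exceeded the highest VEH value. The log2 fold change was 0.94 (SE 0.11, edgeR adjusted p = 0.0011). It was 1.14 (adjusted p = 0.019) in the 4 leukemias without short ribosomal RNA and 0.78 (adjusted p = 0.061) in the 5 with it. Without 73A and 73M, in which the B lineage, myeloid, neutrophil and erythroid lists all fell, it was 0.86. In 4638 *Fkbp5* went from 30.3 to 98.9 FPKM, a ratio of 3.26, above the ratio in each of the 9.

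Between leukemias *Fkbp5* had the largest F of the members (edgeR F = 47.2, adjusted p = 7.2e-07). Its mean level was 15.7 FPKM in 5C, 18.7 in 8633 and 24.9 in JW14 and lay between 114 and 147 FPKM in the other 6. The gap between JW14 and the next leukemia was 2.11 on the log2 scale, against a residual SD of 0.28, and among the upper 6 no neighbours differed beyond that spread. In the 3 low leukemias the mean of *Dtx1*, a direct target of NOTCH, was 0.157 to 0.166 FPKM, and in the other 6 it was 42.9 to 119 FPKM. The DEX to VEH ratio of *Fkbp5* was 1.43 to 1.45 in the 3 low leukemias and 1.56 to 2.89 in the other 6. The leukemias were set apart here by the *Fkbp5* level itself, and these ratios were not tested. Leukemia 4638 had *Dtx1* at 0.180 FPKM in VEH and 0.386 FPKM in DEX together with the intermediate *Fkbp5* levels above.

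**Figure D2:**
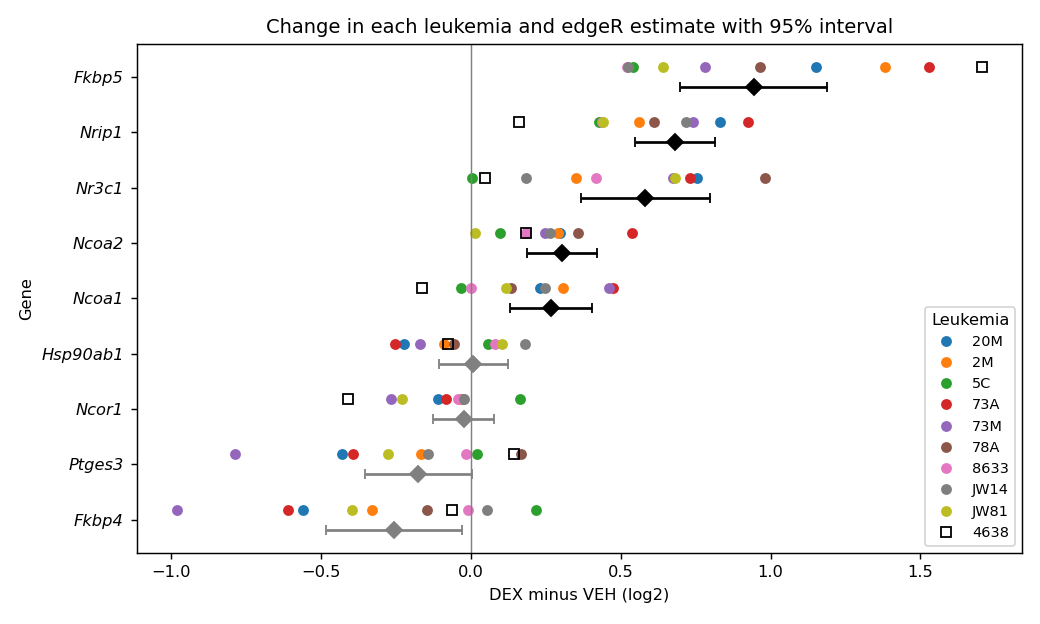
DEX to VEH ratio of FPKM on the log2 scale (axis) for each of the 9 genes, 1 point per leukemia (4638 as an open square), with the edgeR log2 fold change as a diamond and its 95% interval over the 9 leukemias, black where adjusted p was under 0.05 and grey otherwise. All points of *Nr3c1*, *Fkbp5*, *Ncoa2* and *Nrip1* lie at or above 0, those of *Fkbp4* and *Ptges3* spread to both sides.

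*Fkbp4* (ENSMUSG00000030357, chr6:128429735-128438677) encodes FKBP52, which competes with FKBP51 for the HSP90 complex and favours receptor activity. Its VEH levels had a lowest value of 45.2, a median of 50.1 and a highest value of 76.1 FPKM, and its DEX levels had 25.3, 44.1 and 75.6 FPKM. The DEX value was the lower in 7 of 9 pairs with FPKM and in 6 of 9 once TMM factors were applied, with the strongest drop in 73M (49.9 to 25.3 FPKM) and a value higher by 16.2% in 5C. The log2 fold change was -0.26 (SE 0.10, 95% interval -0.48 to -0.031), which did not pass the test (edgeR adjusted p = 0.12). Without 5C it was -0.32 and passed (edgeR adjusted p = 0.042), and without 73A and 73M it was -0.13 (adjusted p = 0.42). In 4638 *Fkbp4* went from 45.8 to 43.9 FPKM. Over the leukemias the level was lowest in 73M (37.6 FPKM) and highest in 8633 (75.9 FPKM), and only JW14 and 8633 were set apart from the rest by more than the residual SD.

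The ratio of *Fkbp5* to *Fkbp4*, both per length, was higher in DEX in 9 of 9 leukemias. In VEH libraries it ranged from 0.202 to 2.15 with a median of 1.34. In DEX libraries it ranged from 0.291 to 6.28 with a median of 4.22. In 5C, 8633 and JW14 *Fkbp4* remained the more abundant transcript in both libraries, with a highest ratio of 0.414. In 73A the ratio passed 1, from 0.956 in VEH to 4.22 in DEX, and in the other 5 *Fkbp5* was the more abundant in both libraries. In 4638 the ratio went from 0.661 to 2.26.

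**Figure D3:**
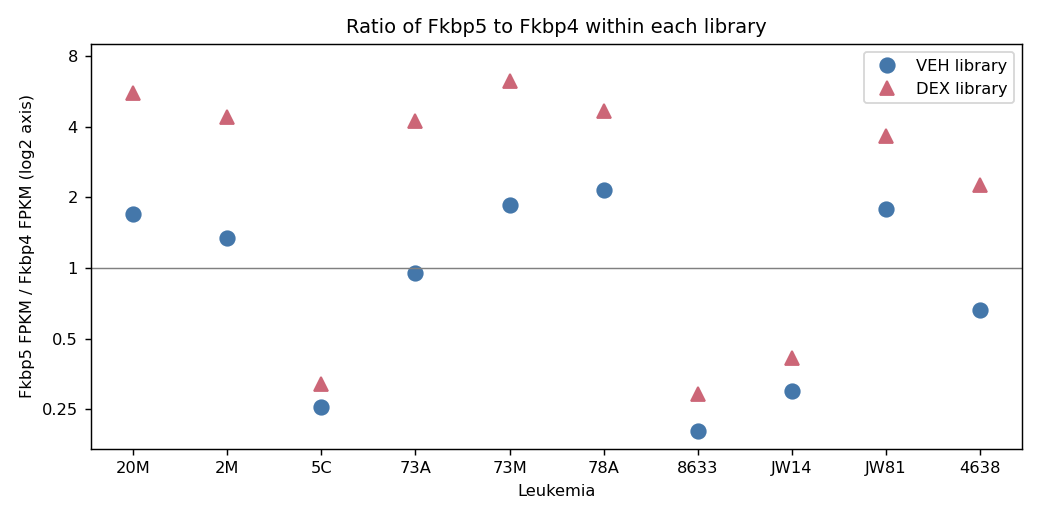
Ratio of *Fkbp5* to *Fkbp4* (both in FPKM, log2-spaced vertical axis) in the VEH (circles) and DEX (triangles) library of each leukemia and of 4638, with a line at 1. Both points of 5C, 8633 and JW14 lie below 1, and the triangle lies above the circle in every leukemia.

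*Ptges3* (ENSMUSG00000071072, chr10:128058954-128077272) encodes p23, which stabilises the mature complex of HSP90 and receptor. Its VEH values ran from 55.9 to 99.4 FPKM (median 72.9) and its DEX values from 42.2 to 98.6 FPKM (median 62.8), and DEX was the lower in 7 of 9 pairs with FPKM and in 6 of 9 with TMM factors. The log2 fold change was -0.18 (SE 0.083, 95% interval -0.36 to 0.0045) and did not pass the test (edgeR adjusted p = 0.17). It was -0.11 without 73M and -0.084 without 73A and 73M, and -0.062 in the 4 leukemias without short ribosomal RNA against -0.27 in the 5 with it, and passed in none of these. In 4638 *Ptges3* went from 59.3 to 65.6 FPKM. Its counts are uncertain, because the annotated copy *Ptges3-ps* was assigned a median of 54.1 FPKM (33.4 to 83.0) and reads shared by both are divided by estimation. Leukemias 73A, 8633, JW14 and 5C, at 87.6 to 97.8 FPKM, were set apart from the other 5, at 56.3 to 66.2 FPKM, by a gap of 0.39 on the log2 scale (residual SD 0.20).

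*Hsp90ab1* (ENSMUSG00000023944, chr17:45567775-45573271), the constitutive HSP90 isoform that holds the receptor in its hormone-binding form, was the most abundant member. It had a mean of 735 ± 133 FPKM in VEH and 725 ± 188 FPKM in DEX libraries (SD, n = 9). The DEX value was higher in 4 leukemias and lower in 5, and the log2 fold change was 0.0079 (SE 0.053, 95% interval -0.11 to 0.12, edgeR adjusted p = 0.94). Its sign turned without a filter on low values and when any of 5C, 8633, JW14 or JW81 was left out. In 4638 *Hsp90ab1* went from 661 to 627 FPKM. Between leukemias it spanned 484 FPKM in 20M to 991 FPKM in JW14 (edgeR F = 17.8, adjusted p = 5.4e-05). The stress-inducible isoform *Hsp90aa1* had a log2 fold change of -0.33 (edgeR adjusted p = 0.057). It passed in 4 of 19 alternatives: with DESeq2 (adjusted p = 0.017), and with edgeR without a filter (0.015), without 5C (0.031) and without 78A (0.043). It did not pass without 73M (-0.24, edgeR adjusted p = 0.093), without 73A and 73M (-0.20, 0.21) or with a term for short ribosomal RNA (-0.22, 0.20). In the 4 leukemias without short ribosomal RNA it was -0.21 (edgeR adjusted p = 0.31), and in the 5 with it -0.42 (0.17). The ratio of *Hsp90ab1* to *Hsp90aa1* was higher in DEX in 8 of 9 leukemias, with medians of 2.88 in VEH and 3.36 in DEX. The ratio of *Hsp90ab1* to *Nr3c1* was lower in DEX in 8 of 9, with medians of 19.9 and 12.9.

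The coactivators *Ncoa1* (SRC-1; ENSMUSG00000020647, chr12:4247362-4477182) and *Ncoa2* (GRIP1; ENSMUSG00000005886, chr1:13139105-13374083) bind the ligand-activated receptor and recruit acetyltransferases. They were the least abundant members, at means of 7.66 ± 2.79 and 10.1 ± 2.22 FPKM (SD, n = 9). *Ncoa1* rose 1.2-fold, from 3.44 to 10.1 FPKM in VEH (median 6.84) to 3.93 to 13.6 FPKM in DEX (median 8.47). It was higher in 8 of 9 pairs with FPKM, in 9 of 9 with TMM factors and in 7 of 9 with TPM (log2 fold change 0.27, SE 0.063, edgeR adjusted p = 0.020). That call was near the threshold: it was lost without 20M (edgeR adjusted p = 0.054), 2M (0.050) or 73A (0.054), within either set of leukemias split by short ribosomal RNA (0.13 and 0.17), and without 73A and 73M (0.10). In 4638 *Ncoa1* was lower in DEX, by 10.6% (7.45 to 6.66 FPKM).

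*Ncoa2* rose 1.23-fold, from 6.43 to 12 FPKM in VEH (median 9.25) to 6.49 to 14.7 FPKM in DEX (median 10.2). It was higher in 9 of 9 pairs with FPKM and in 7 of 9 with TPM, by the least in JW81 (0.967%) and by the most in 73A (45.0%). The log2 fold change was 0.30 (SE 0.054, 95% interval 0.19 to 0.42, edgeR adjusted p = 0.0069). It was 0.38 (adjusted p = 0.044) without short ribosomal RNA and did not pass in the 5 leukemias with it (adjusted p = 0.15). In 4638 *Ncoa2* went from 8.58 to 9.75 FPKM. The third gene of this family, *Ncoa3*, had a log2 fold change of -0.07 and did not pass (edgeR adjusted p = 0.39). Between leukemias *Ncoa1* spanned 3.76 FPKM in JW14 to 11.7 FPKM in 73M (edgeR F = 33.5, adjusted p = 3.4e-06), and *Ncoa2* spanned 6.46 FPKM in JW81 to 13.3 FPKM in 2M (F = 14.1, adjusted p = 0.00014).

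*Nrip1* (ENSMUSG00000048490, chr16:76287400-76373827) encodes RIP140, which binds ligand-activated nuclear receptors and recruits histone deacetylases. It had the smallest p among the members and ranked 3 of 11339 tested genes by p. In VEH libraries it was at 22.2 FPKM in 78A, 24.2 in JW14, 24.2 in 73A, 24.3 in 8633, 24.8 in 20M, 31.5 in 2M, 35.6 in 73M, 36.1 in JW81 and 41.5 in 5C. In the DEX libraries it was at 34.0, 39.7, 45.9, 32.9, 44.1, 46.5, 59.5, 49.0 and 55.8 FPKM in the same order. Every pair was higher in DEX, by 34.4% to 89.7%, and although the sets overlapped, 6 VEH values lay below the lowest DEX value and 6 DEX values above the highest VEH value.

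The *Nrip1* change was 1.60-fold (log2 fold change 0.68, SE 0.062, 95% interval 0.55 to 0.82, edgeR adjusted p = 0.00043). It passed both in the 4 leukemias without short ribosomal RNA (0.67, adjusted p = 0.019) and in the 5 with it (adjusted p = 0.039). In 4638 *Nrip1* went from 23.9 to 26.8 FPKM.

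*Ncor1* (ENSMUSG00000018501, chr11:62316426-62458541), the scaffold of a histone deacetylase corepressor complex, varied least of all members. Its VEH values ran from 34.3 to 47.9 FPKM (median 39.2) and its DEX values from 32.2 to 44.4 FPKM (median 39.7). DEX was the lower in 8 of 9 pairs with FPKM and in 7 of 9 with TMM factors, and the log2 fold change was -0.024 (SE 0.047, 95% interval -0.13 to 0.078, edgeR adjusted p = 0.75). Between leukemias it spanned 34.0 to 46.1 FPKM (edgeR F = 3.31, adjusted p = 0.038). That call was lost without 20M, 2M, 73A, 8633, JW14 or JW81, with edgeR adjusted p from 0.055 to 0.11. In 4638 it went from 42.0 to 31.5 FPKM, a change of -24.8% and a larger drop than in each of the 9. Its exons share 82 bases with *Pigl* on the other strand (0.640% of its exon length).

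Of 66 other listed genes of the pathway, 58 were tested, 3 were higher and 4 were lower in DEX (12.1%, beside 13.0% of all tested genes). Of 20 other chaperones and cochaperones, 3 were lower and 0 higher, with a median log2 fold change of -0.14. These were *Hsph1*, a nucleotide exchange factor of HSP70 (log2 fold change -0.81, edgeR adjusted p = 0.045), *Ppid*, the immunophilin cyclophilin 40 (-0.36, 0.018), and *Dnaja1*, an HSP40 cochaperone (-0.24, 0.048). Of 20 other coactivators, 3 were higher: the SWI/SNF ATPase *Smarca2* (0.47, edgeR adjusted p = 0.0076, 9 of 9 leukemias), the SWI/SNF subunit *Smarcd1* (0.29, 0.040) and *Crtc2*, a coactivator of CREB (0.22, 0.048). Of 14 other corepressors 0 passed, with a median of 0.024.

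Among steroid receptors and enzymes of corticosteroid metabolism, 4 of 10 were tested. *Hsd11b1*, which regenerates active glucocorticoid, fell by 0.53 on the log2 scale (edgeR adjusted p = 0.021, lower in 8 of 9). The mineralocorticoid receptor *Nr3c2* averaged 2.26 FPKM, against 43.3 FPKM for *Nr3c1*. Its leukemia means ran from 0.227 to 6.27 FPKM (edgeR F = 138, adjusted p = 6.8e-09), and its log2 fold change was 0.071 (edgeR adjusted p = 0.56). All 7 of these calls were lost in both of the smaller sets split by short ribosomal RNA. In the 4 leukemias without it edgeR adjusted p ran from 0.066 for *Smarca2* to 0.51 for *Smarcd1*, and in the 5 with it from 0.11 for *Smarca2* to 0.23 for *Crtc2*. The log2 fold changes without and with it were -0.54 and -1.05 for *Hsph1*, -0.34 and -0.74 for *Hsd11b1*, and 0.33 and 0.58 for *Smarca2*. They were -0.28 and -0.44 for *Ppid*, 0.13 and 0.41 for *Smarcd1*, -0.096 and -0.37 for *Dnaja1*, and 0.19 and 0.23 for *Crtc2*, and the difference between the sets was not tested. *Smarca2* and *Ppid* passed with each single leukemia left out, whereas *Hsph1*, *Dnaja1*, *Smarcd1*, *Crtc2* and *Hsd11b1* were lost without 20M (edgeR adjusted p from 0.054 to 0.13) and without 73A (0.051 to 0.12). Without 20M the log2 fold changes of these 5 were -0.82, -0.24, 0.27, 0.18 and -0.54 in that order. Without 73A they were -0.78, -0.26, 0.26, 0.19 and -0.52. Without both 73A and 73M all 7 were lost (edgeR adjusted p from 0.055 for *Smarca2* to 0.19 for *Smarcd1*). The log2 fold changes were then -0.54 for *Hsph1*, -0.45 for *Hsd11b1*, 0.41 for *Smarca2* and -0.32 for *Ppid*. They were 0.21 for *Smarcd1*, -0.21 for *Dnaja1* and 0.22 for *Crtc2*.

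**Figure D4:**
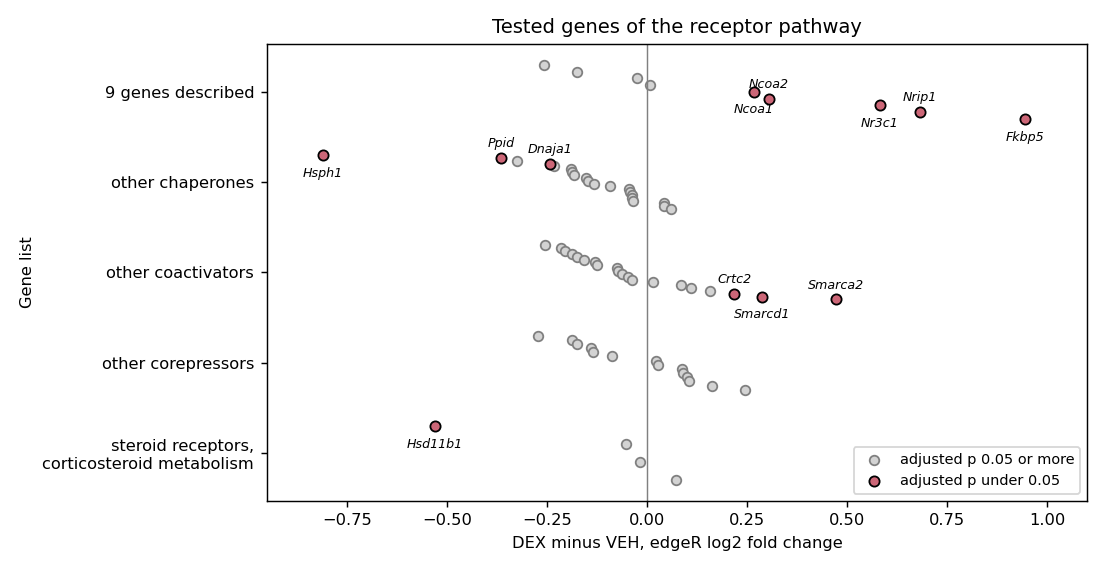
edgeR log2 fold change of DEX against VEH (horizontal axis) for every tested gene of the 9 members and of the 4 other lists, 1 point per gene, red where adjusted p was under 0.05. Called members lie to the right of 0, called chaperones to the left.

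The level of *Nr3c1* in the VEH library was set against the change of *Fkbp5* over the 9 leukemias, the only relation of this kind computed. Pearson's r was 0.57 (exact two-sided permutation p = 0.11) and Spearman's rho was 0.70 (exact permutation p = 0.043). With 1 relation the adjusted values are the same. Without 2M and 73M, the leukemias farthest from the median *Nr3c1* level, r was 0.60 (exact permutation p = 0.16) and rho 0.71 (exact permutation p = 0.088). With TPM r was 0.49 (exact permutation p = 0.18) and rho 0.23 (exact permutation p = 0.55). With 4638 added r was 0.37 (exact permutation p = 0.28) and rho 0.56 (exact permutation p = 0.096). Only rho passed 0.05, and it did not under these settings. With 1 leukemia left out rho ran from 0.57 to 0.79. It passed without 20M (exact permutation p = 0.046), 5C (0.028), 73M (0.028) or 78A (0.046). It did not pass without 2M (exact permutation p = 0.11), 73A (0.069), 8633 (0.15), JW14 (0.11) or JW81 (0.069). The 4 leukemias without short ribosomal RNA and the 5 with it were fewer than the 6 required here for a correlation, and none was computed within them.

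**Figure D5:**
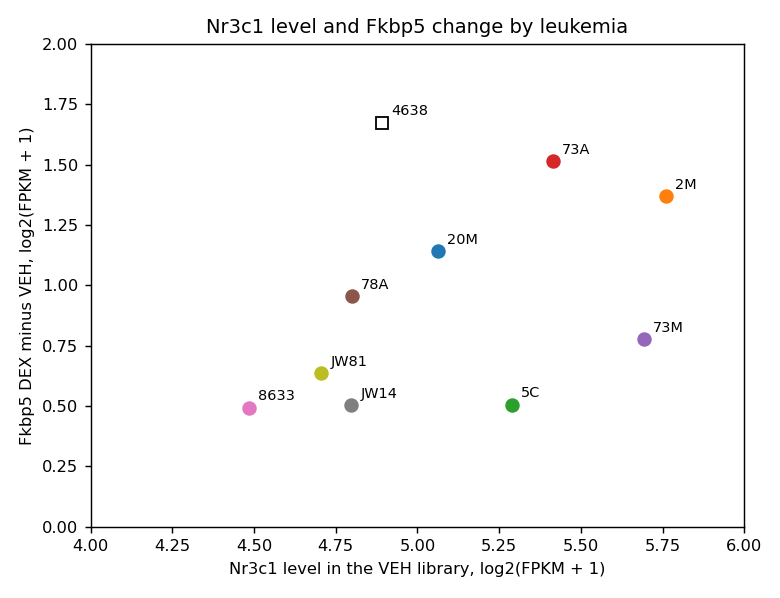
Level of *Nr3c1* in the VEH library (horizontal axis, log2(FPKM + 1)) against the DEX minus VEH difference of *Fkbp5* (vertical axis, log2(FPKM + 1)), 1 point per leukemia, with 4638 as an open square. 5C and 73M lie low for their *Nr3c1* level, and 4638 lies above all 9.

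Members were also compared with each other over the 9 leukemias, as a description of points that share library depth and cell mixture. The 6 pairs with the largest Pearson r in size are given for each measure. Levels ran in opposite directions for *Fkbp4* and *Ncoa1* (r = -0.97), *Hsp90ab1* and *Ncoa1* (-0.86) and *Fkbp5* and *Ptges3* (-0.84), and together for *Ncoa2* and *Ncor1* (0.87), *Fkbp4* and *Hsp90ab1* (0.80) and *Fkbp4* and *Ptges3* (0.80). Changes ran together for *Fkbp4* and *Ptges3* (0.89), *Fkbp4* and *Ncor1* (0.83), *Ncoa1* and *Nrip1* (0.81) and *Ncoa2* and *Nrip1* (0.81), and in opposite directions for *Fkbp4* and *Ncoa1* (-0.83) and *Fkbp5* and *Hsp90ab1* (-0.82). The 5 tested genes whose change was most like that of *Fkbp5* were *Chrna9* (0.99), *Stard9* (0.98), *Ucp2* (0.97), *Dnajc18* (0.97) and *Lrrn4* (0.96). They too are the highest among all tested genes over 9 points and are given as a description. *Lrrn4* averaged only 1.03 FPKM and *Chrna9* 3.37 FPKM.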

How the data were processed

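Bulk poly(A) RNA from leukemic bone marrow was sequenced in paired ends on unstranded TruSeq libraries. The authors aligned reads with Bowtie 2 to mm10 and deposited expected counts from RSEM for each gene, normalized neither for depth nor for length. The gene annotation and the RSEM version are not given in the sources used here. The table is named for FPKM, but its values are expected counts, so the count test planned for that case was used. The DEX columns of leukemias 4638, 73A and 2M end in another code than the label of the sample and were matched by leukemia.

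FPKM were calculated here from the expected counts, the library total and merged exon lengths in GENCODE M21 (GRCm38), found for 37693 genes (96.6%). Counts were rounded, genes averaging under 1 FPKM were dropped, and edgeR 4.0.16 in R 4.3.3 (TMM, quasi-likelihood test, adjusted p under 0.05) was fitted with leukemia as a block. Standard errors were derived from the F statistic. The labels name the same leukemia for both libraries, and deviations from the group means correlated within each pair (r from 0.58 to 0.91 over 11339 genes). DESeq2 1.42.0, other filters and scalings, and leukemias left out were alternatives. Levels are means over both libraries, on the log2(FPKM + 1) scale in orders and correlations, which understates changes of low genes. Depth limits precision: at 1 kb of exon, 3 counts equal 0.0149 FPKM in the deepest and 0.365 FPKM in the shallowest library, which covers counting error only. Exact permutation tests used Python 3.11.15 with scipy 1.17.1. The code was tested on simulated data.

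The members and lists were chosen with earlier results of these data known. Besides members, the text names pathway genes past the test (up to 8 by size), the paralogs *Hsp90aa1*, *Ncoa3* and *Nr3c2*, and the 5 genes most like *Nr3c1* in level and *Fkbp5* in change. *Dtx1*, *Cd5* and *Itgam* were chosen after their values were seen. *Prmt1* of the coactivator list was not analysed here. The genotype of the leukemias and 1 gene that this rule names are not reported here. Promoter sequences are from RefSeq (GRCm38.p6).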

Additional observations from a re-analysis of the deposited data

How the results depend on the processing

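Each of the 5 called members was higher under all 19 alternatives, and 79 of these 95 values passed: 17 of 19 for *Fkbp5*, *Nr3c1* and *Ncoa2*, 18 for *Nrip1* and 10 for *Ncoa1*. With no replicate block (leukemia left out of the model) the log2 fold changes that did not pass were 0.60 for *Nr3c1*, 1.08 for *Fkbp5*, 0.30 for *Ncoa1*, 0.32 for *Ncoa2* and 0.68 for *Nrip1*. In the 5 leukemias with short ribosomal RNA they were 0.51 for *Nr3c1*, 0.78 for *Fkbp5*, 0.26 for *Ncoa1* and 0.24 for *Ncoa2*. *Ncoa1* also did not pass with no filter (0.23), with a term for short ribosomal RNA (0.23), in the 4 leukemias without it (0.27) and without 73A and 73M (0.18), an alternative chosen after seeing the data, and it ranged from 0.23 to 0.30 when 1 leukemia was left out. *Fkbp4* ranged from -0.32 to -0.18 in the same way.

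Of the genes tested, 13.0% were called between DEX and VEH libraries. With no replicate block 0.0706% were called, with the short ribosomal RNA term 4.10%, in the 4 leukemias without it 4.19%, in the 5 with it 0.132% and without 73A and 73M 2.14%. When 1 leukemia was left out the share was 5.96% to 18.0%, and it was 5.96% without 20M, 6.52% without 2M, 6.76% without 73A, 7.47% without 73M and 8.52% without JW81. The share was 19.1% with DESeq2, 11% with filterByExpr and 12.7% with 4638 added. With no filter it was 6.28%, over more genes tested, although the count went from 1475 to 1803. The cause was not tested.

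*Hsp90ab1* turned to -0.027 with no filter and to -0.040 without short ribosomal RNA, and ranged from -0.020 to 0.026 when 1 leukemia was left out. *Ncor1* turned to 0.021 with the short ribosomal RNA term. The call of *Ncor1* between leukemias was lost in 8 of 12 alternatives. The r of *Nr3c1* level with *Fkbp5* change was 0.43 to 0.71 when 1 leukemia was left out. The lowest count of a member was 288, for *Ncoa1*.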
